A study of Mus musculus with 14 samples.

Results

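The regions described here are the mESC-only p300 regions without RXRα: stretches of the genome with a p300 peak in both libraries of mouse embryonic stem cells (mESCs), no p300 peak in either gastruloid library and no RXRα peak in either mESC library. They were thus chosen by presence or absence in 6 peak lists, 2 each of p300 in gastruloids, p300 in mESCs and RXRα in mESCs. Peaks at input peaks were dropped first, and any shared base pair counted as overlap. There were 7938 such regions among 31014 p300 regions of mESCs and among 13793 mESC-only ones. The other mESC-only regions, 5855 in all, had a peak of at least 1 RXRα library. A further 3352 regions had p300 in both stages and no RXRα in mESCs, 10116 had p300 in both stages with RXRα, and 3753 had a p300 peak in only 1 gastruloid library and belong to none of these classes.

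The study used chromatin immunoprecipitation with sequencing (ChIP-seq) in mouse gastruloids, aggregates that mimic parts of the early body axis, and in the mESCs they are grown from. All libraries came from the E14_triple reporter line, described in the labels' protocols as carrying BRA-GFP and SOX17-RFP, so every group shares these reporters. Each protein carried a tag at its endogenous locus: p300 libraries are endogenous p300-V5-miniTurboID with V5 antibody, and RXRα, Sp5 and Zeb2 libraries are HA-FKBP12F36V degron tag lines with HA antibody. Gastruloids were started from 300 sorted cells, given 3 µM CHIR99021, an activator of Wnt signalling, after 48 h and labelled 120 h, and mESCs were kept in serum with LIF. p300 and RXRα had 2 libraries each in gastruloids and in mESCs, Sp5 and Zeb2 had 2 each in gastruloids only, and 1 input per stage came from the p300 line. p300 and RXRα were thus never measured in the same tagged line, and an absent RXRα peak means absence from the peak lists of another line of the same background. The labels do not say whether replicates were separate cultures. All p-values below measure spread among regions, which are not replicates of a condition.

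p300 is an acetyltransferase that transcription factors bring to enhancers and promoters, where it acetylates histones, and its ChIP-seq signal is widely used to locate active enhancers. RXRα is a nuclear receptor that binds DNA as a partner of retinoic acid receptors, liver X receptors and other lipid-sensing receptors, mostly at repeats of the letters AGGTCA. In mESCs grown with LIF, enhancers are bound by factors of the pluripotency network such as Pou5f1 (Oct4), Sox2, Esrrb and the Klf factors, many of which are switched off when the cells differentiate.

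The letters beneath the p300 summits could be read only where a summit fell in a RefSeq promoter window (GRCm38.p6), which runs from 250 bases before to 50 after a transcript start. Such windows held 65 of the 7938 regions, in 68 windows, of which 30 belonged to protein-coding genes. They are therefore the promoter-proximal minority and say nothing of the letters under the other regions. The first set shows the 5 strongest members in windows of coding genes, up to 75 bases on each side of the summit and cut where the window ends, 5′ to 3′ on the strand of the gene. Chit1 encodes a chitinase, Gabrp a subunit of the GABA-A receptor, Akap1 an anchor of protein kinase A at mitochondria and Serpinb9b a protease inhibitor. Capitals mark, on either strand, matches to AP-1 (TGANTCA), Klf4 (GGGTGTGG), the nuclear receptor site (AGGTCA), the Oct octamer (ATGCAAAT), Sox2 (CCATTGT) and Esrrb (TCAAGGTCA, which contains AGGTCA).
Chit1 (chr1:134111035-134111185, plus strand): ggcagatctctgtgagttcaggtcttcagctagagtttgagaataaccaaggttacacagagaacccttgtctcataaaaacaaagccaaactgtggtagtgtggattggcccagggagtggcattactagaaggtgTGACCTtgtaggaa
Gabrp (chr11:33579042-33579192, minus strand): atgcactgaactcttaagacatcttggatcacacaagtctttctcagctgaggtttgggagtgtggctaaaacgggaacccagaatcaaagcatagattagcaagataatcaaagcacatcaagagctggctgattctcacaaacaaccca
Prr18 (chr17:8340156-8340288, plus strand): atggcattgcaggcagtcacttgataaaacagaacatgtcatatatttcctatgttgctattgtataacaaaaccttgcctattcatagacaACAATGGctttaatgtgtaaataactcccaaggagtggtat
Akap1 (chr11:88851505-88851655, minus strand): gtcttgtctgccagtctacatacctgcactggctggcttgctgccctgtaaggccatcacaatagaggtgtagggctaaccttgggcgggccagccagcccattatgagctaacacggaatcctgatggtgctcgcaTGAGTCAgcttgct
Serpinb9b (chr13:33027244-33027394, plus strand): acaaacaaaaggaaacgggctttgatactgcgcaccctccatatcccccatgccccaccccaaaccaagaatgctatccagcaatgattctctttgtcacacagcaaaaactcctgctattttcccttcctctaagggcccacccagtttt
In 3 of these 5 stretches there was 1 marked match each: a nuclear receptor site in Chit1, a Sox2 match in Prr18 and an AP-1 match in Akap1. The stretches of Gabrp and Serpinb9b held none.

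The second set shows members whose windows matched the octamer of Pou5f1 and other POU factors, or the element of the orphan nuclear receptor Esrrb, with the match inside the printed stretch. These are the letters closest to the mESC factors named above. Their p300 folds were moderate, with values in replicates 1 and 2 of 3.65 and 4.79 at Gm30085, 6.11 and 6.03 at Gm16551, 4.87 and 5.18 at E030042O20Rik, and 4.72 and 3.25 at Sprr2b, a gene of the cornified envelope.
Gm30085 (chr15:93001389-93001539, plus strand): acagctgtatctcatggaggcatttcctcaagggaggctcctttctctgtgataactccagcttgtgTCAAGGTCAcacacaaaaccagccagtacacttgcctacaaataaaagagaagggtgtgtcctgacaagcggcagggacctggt
Gm16551 (chr9:74848406-74848486, plus strand): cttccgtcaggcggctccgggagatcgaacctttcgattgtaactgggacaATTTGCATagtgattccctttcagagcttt
E030042O20Rik (chr2:75706713-75706863, plus strand): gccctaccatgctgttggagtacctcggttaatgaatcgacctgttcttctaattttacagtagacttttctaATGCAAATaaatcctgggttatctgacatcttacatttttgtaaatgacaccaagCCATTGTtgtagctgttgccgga
Sprr2b (chr3:92316459-92316609, plus strand): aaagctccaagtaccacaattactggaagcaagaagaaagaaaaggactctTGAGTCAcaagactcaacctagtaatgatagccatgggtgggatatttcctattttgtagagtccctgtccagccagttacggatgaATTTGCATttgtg
E030042O20Rik held an octamer and a Sox2 match in 1 stretch, and Sprr2b an octamer and an AP-1 match. A further window, that of Gm10648, held the Esrrb element outside the printed stretch. For contrast, the 2 strongest mESC-only regions with RXRα in coding-gene windows are shown next.
Klk1 (chr7:44225112-44225262, plus strand): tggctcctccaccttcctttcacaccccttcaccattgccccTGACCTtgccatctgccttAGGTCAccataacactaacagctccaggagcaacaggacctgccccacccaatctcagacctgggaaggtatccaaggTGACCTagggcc
Xaf1 (chr11:72301379-72301478, plus strand): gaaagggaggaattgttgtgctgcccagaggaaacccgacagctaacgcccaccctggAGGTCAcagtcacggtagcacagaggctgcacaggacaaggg
The stretch at Klk1, a kallikrein gene, held 3 nuclear receptor sites, and that at Xaf1 held 1. These regions had p300 folds of 20.3 and 17.1 at Klk1 and 12.7 and 10.8 at Xaf1, beside 9.09 and 11.2 at Chit1, the strongest member of the first set.

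Within the promoter windows, members carried several activator motifs more often than promoters at large, and the nuclear receptor site about as often as the regions with RXRα. AP-1, the site of Fos and Jun factors, matched 16 of 68 member windows (23.5%), against 20.6% of 63 windows with RXRα and 7.81% of all 32851 windows. The nuclear receptor site matched 30.9% of member windows, against 33.3% with RXRα and 16.3% of all windows. Klf4 matched 14.7%, against 9.52% and 3.56%, and Sox2 10.3%, against 7.94% and 3.66%. The octamer, which contains the Oct element TTTGCAT (7.35%, against 7.94% and 4.63%), matched 3 member windows (4.41%), against 3.17% and 1.74%, and Esrrb 2 (2.94%), against 1.59% and 0.423%. In the 101 windows of regions of both stages without RXRα, the octamer matched 5.94% and the Oct element 7.92%, both above the members. AP-1 matched 11.9% there, the nuclear receptor site 10.9%, Klf4 8.91%, Sox2 3.96% and Esrrb none, all below the members. Among direct repeats bound by RXR partners, exact copies with 1 base (DR1) or 5 bases (DR5) between AGGTCA and AGGTCA were searched. They matched no window of members or of regions with RXRα, and only 13 and 3 of all windows. Other spacings and inexact copies were not searched.

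The other motifs differed in direction, and the first 5 given here had lower shares in members than in the regions with RXRα. Stat3 (TTCCNGGAA) matched 0 of 68 member windows, against 8 of 63 with RXRα (12.7%) and 1.148% of all windows. Tcf/Lef (TTCAAAG) matched 0, against 11.1% and 5.14%. Zic (CAGCAGG) matched 7.35%, against 25.4% and 10.5%, and the E-box of Zeb and Snai factors (CAGGTG) 20.6%, against 34.9% and 20.2%. Tead (GGAATG) matched 14.7%, against 22.2% and 14.7%. In 4 more the members' share was the higher. Tfap2 (GCCNNNGGC) matched 10.3%, against 4.76% and 16.6%, the GC box of Sp factors (GGGCGG) 29.4%, against 28.6% and 35.7%, and the CCAAT box of NF-Y 39.7%, against 33.3% and 37.4%. Otx2 (TAATCC) matched 7.35%, against 4.76% and 7.06%. The Oct-Sox composite (CATTGT and ATGCAAA with 1 base between them), Grhl (AACCGGTT), Nrf1 and the Ctcf core matched no member window. The windows are few and were not tested, and no match says only that these letters are not in these windows.

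**Figure D1:**
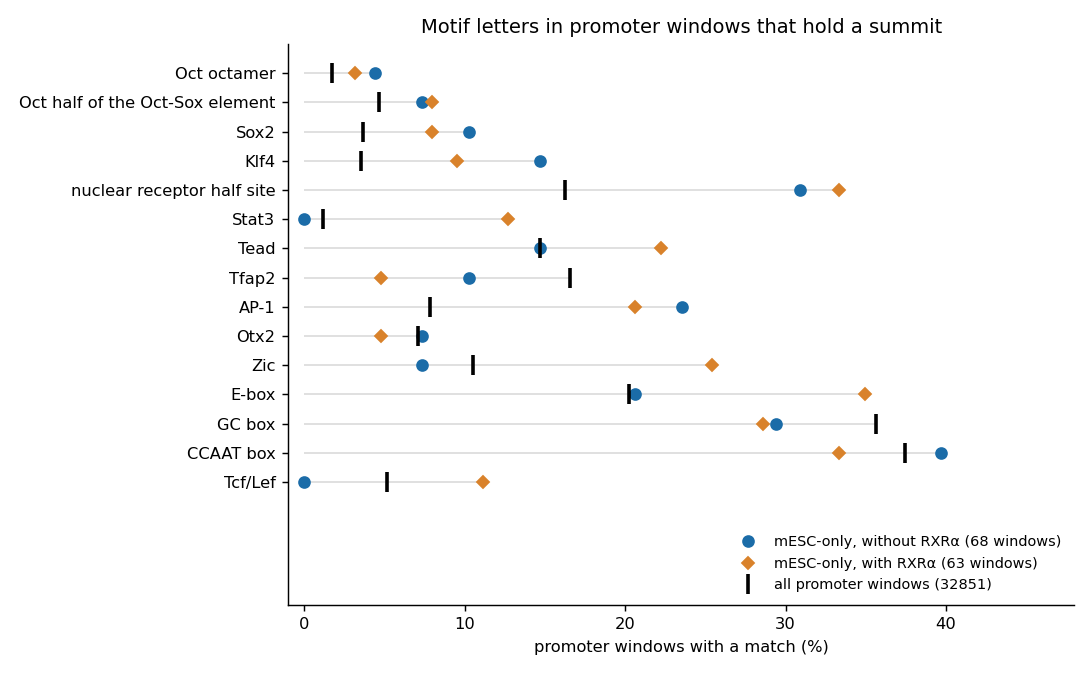
Share of RefSeq promoter windows with at least 1 match (x axis, percent) for 15 motifs (y axis), in windows holding the summit of an mESC-only p300 region without RXRα (blue, 68 windows), with RXRα (orange, 63) and in all 32851 windows (black ticks). AP-1, Klf4, Sox2 and the nuclear receptor site lie right of the black ticks in both classes, while Stat3 and Tcf/Lef are at 0 in the blue class alone.

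The member windows were also poor in CpG, the dinucleotide that accumulates in constitutive promoters. The median window held 4 CpG and 49.5% G and C, against 5 and 52.7% in the windows with RXRα. Windows of the regions with p300 in both stages and no RXRα held 17 and 58.7%, those in both stages with RXRα 22 and 62.7%, and all windows 7 and 52.7%. Of the 68 member windows, 30 belonged to coding genes, much like 29 of the 63 windows with RXRα. In both stages without RXRα, 75 of 101 windows did. The members that did lie at promoters thus sat at CpG-poor ones, as did the mESC-only regions with RXRα.

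p300 was weaker at the members than at the other classes, which is a description, since the lists that chose them gave these values. The median fold at the summit, the ratio of fragments to local background as the authors' peak caller gave it, was 6.47 in replicate 1 and 5.72 in replicate 2, against 7.51 and 6.55 in mESC-only regions with RXRα and 8.01 and 7.002 in regions of both stages without RXRα. The median summit held 33 and 24 fragments in members, against 46 and 33, and 41 and 30, so single peaks carry a sizeable counting error. The range was wide: the lowest fold of any member was 2.11 in replicate 1 and 1.84 in replicate 2, and the strongest member had 26.6 and 25.6. The replicates gave a like order of strength (Spearman rho 0.81 across 7938 regions, which are not independent), and their summits lay within 100 bp of each other in 91.8% of members. The median member was 420 bp wide, against 510 bp with RXRα and 459 bp for both stages without RXRα.

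The share of mESC-only regions without RXRα stayed between 54.4% and 65.2% in the lower 8 of 10 equal bins of p300 strength, was 47.6% in the ninth and 35.2% in the strongest bin. There, 36.0% had no peak in RXRα replicate 1 alone and 65.4% none in replicate 2 alone. The RXRα lists were unequal in length, with 49661 and 28112 peaks, and of the 5855 mESC-only regions with RXRα, 97.5% had a peak in replicate 1 and 52.5% in replicate 2. Membership therefore rests mostly on the first RXRα library. Whether a weaker p300 site also had RXRα too weak to be listed was not tested.

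**Figure D2:**
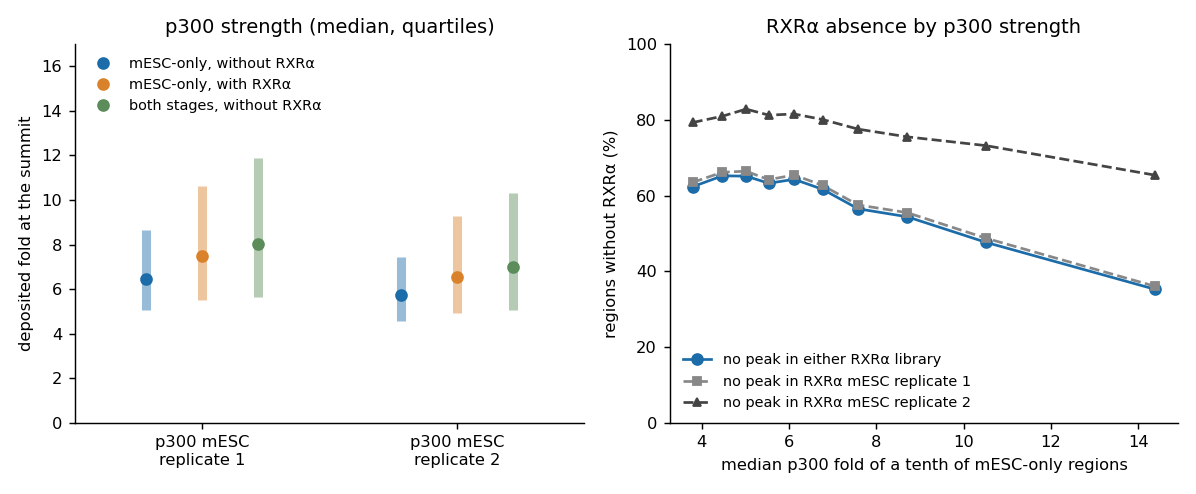
Left, deposited p300 fold at the summit (y axis) in each mESC replicate, as the median (point) and quartiles (bar), for mESC-only regions without RXRα (blue), with RXRα (orange) and regions of both stages without RXRα (green). Right, percent of mESC-only regions without RXRα (y axis) by the median p300 fold of each of 10 equal bins (x axis), for both RXRα libraries together and each alone; the share without a peak in either library is 62.3% in the weakest bin and 35.2% in the strongest.

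The rule turns on overlap, and few regions lay at its edge. The members within 100 bp of an RXRα mESC peak numbered 38 and had median folds of 5.60 and 4.95. The mESC-only regions that shared only 1 to 100 bp with an RXRα peak, and so were left out, numbered 50 and had 5.29 and 4.42. The median gap between a member and the nearest RXRα mESC peak was 10023.5 bp, and 356 members (4.48%) had one within 500 bp. The nearest p300 peak of either gastruloid library lay at a median of 6877.5 bp, with 40.9% of members within 5 kb, against 5213 bp and 48.4% for mESC-only regions with RXRα.

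Members stood alone along the genome. With regions up to about 13 kb apart joined into runs, 6900 members (86.9%) had no neighbour of their own class, 458 pairs were formed, 38 runs held 3 and 2 runs held 4. The runs of 4 lay at chr11:31727215-31751679, nearest to Bod1, and at chr10:40354086-40376191, nearest to Cdk19, which encodes a kinase of the Mediator complex. The run near Bod1 included the second strongest member of all, while its weakest region had a mean fold of 3.03. Among mESC-only regions with RXRα, 85.7% stood alone.

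Of the 12 strongest members, 8 lay over 100 kb from either end of any protein-coding gene. So did 7 of the 12 strongest mESC-only regions with RXRα. The strongest member, at chr7:31591051-31591598, lay 26300 bp from Scgb2b6, a secretoglobin gene, with folds of 26.6 and 25.6 from 164 and 127 fragments. The second, at chr11:31736540-31737091, lay 64978 bp from Bod1, a regulator of chromosome attachment in mitosis, with folds of 26.5 and 23.6. The third lay on the X chromosome at chrX:18824926-18825557, 363820 bp from Dipk2b, with 25.5 and 23.2. All 3 had close values in the replicates.

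Of the other 9 among the strongest 12, 2 lay inside a gene. One was inside Shq1, an assembly factor of ribonucleoproteins that modify RNA (chr6:100635079-100635587, folds of 23.1 and 21.96), and the other inside Cpa6, a carboxypeptidase gene (chr1:10476708-10477269, 23.9 and 20.4). A region 150322 bp from Kit, the receptor of stem cell factor, had 21.8 and 20.5 (chr5:75424373-75425029). A region 290803 bp from Bcl11a, a zinc-finger repressor known for silencing fetal haemoglobin, had 22.3 and 21.1 (chr11:24464025-24464707). The regions nearest to Arrdc3, an arrestin-related gene, and to Ralyl lay 620871 and 622113 bp away, with folds of 25.5 and 22.7 and of 21.8 and 20.0. Those nearest to 1700012A03Rik, Gm36722 and Arpp21 had folds between 21.1 and 22.6 in both replicates. All 12 remained members under each of 12 alternative ways of using the lists.

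Position was not used by the rule, and the share at gene ends differed between members and both classes tested against them. Fewer members lay at a gene end, defined as a summit within 1 kb of either end of a protein-coding gene, since the gene table gives no strand: 277 of 7938, or 3.49% (95% Wilson interval 3.11 to 3.92). Of mESC-only regions with RXRα, 261 of 5855 did, or 4.46% (3.96 to 5.02), an odds ratio of 0.775 (95% interval 0.652 to 0.921) with an adjusted p of 0.00546 (two-sided Fisher's exact test). Of regions with p300 in both stages and no RXRα, 244 of 3352 did, or 7.28% (6.45 to 8.21), an odds ratio of 0.461 (0.386 to 0.550) with an adjusted p of 7.89e-17 by the same test. The background over all p300 mESC regions was 7.2%, and regions of both stages with RXRα, not tested here, had 12.3%. All p-values were adjusted over the 10 Fisher tests made.

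Members also lay far from any gene end more often than the regions with RXRα. A summit deep inside a long gene counts as far too, as inside Cpa6, 181155 bp from a gene end. A share of 23.4% (22.4 to 24.3), 1854 members, lay over 100 kb from any gene end, against 15.4% (14.5 to 16.4), 902 regions, with RXRα. The odds ratio was 1.67 (1.53 to 1.83), with an adjusted p of 1.25e-30 (two-sided Fisher's exact test), and the background over all p300 mESC regions was 18.8%. Against regions of both stages without RXRα, of which 23.3% lay that far (781 regions), the odds ratio was 1.00 (0.912 to 1.10), with an adjusted p of 0.961 by Fisher's exact test. Beside those at gene ends, 3504 members (44.1%) were inside a gene and 4157 (52.4%) between genes. Both counts include regions over 100 kb from any gene end. The median distance to a gene end was 27351.5 bp in members, 19421 bp with RXRα and 30066 bp in both stages without RXRα.

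Peaks of each p300 mESC library alone showed the same order. The share at gene ends averaged 3.97% ± 0.354 in mESC-only peaks without RXRα and 5.11% ± 0.294 in those with RXRα (SD, n = 2 libraries). The share over 100 kb away averaged 22.4% ± 0.603 without RXRα and 14.5% ± 0.627 with RXRα (SD, n = 2). The groups did not overlap in either measure, though with 2 libraries no test on libraries was made.

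p300 strength differed between the classes, and so it is given beside these shares for the mESC-only regions. The comparison with regions of both stages was not binned by strength. In 4 equal bins of mean p300 fold over all mESC-only regions, the share over 100 kb away was 14.0%, 21.6%, 27.1% and 34.7% in members, low to high, and 8.99%, 11.2%, 15.2% and 22.4% with RXRα. At gene ends the shares were 5.13%, 3.34%, 3.02% and 1.93% in members and 6.42%, 4.70%, 3.92% and 3.44% with RXRα. Each bin thus had the same order as the whole. Positions over 100 kb from any gene end were more frequent among the stronger regions of both classes. Among the 12, 100 and 1000 strongest members, 66.7%, 48% and 37.9% lay over 100 kb from any gene end, against 58.3%, 36% and 26.7% with RXRα.

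**Figure D3:**
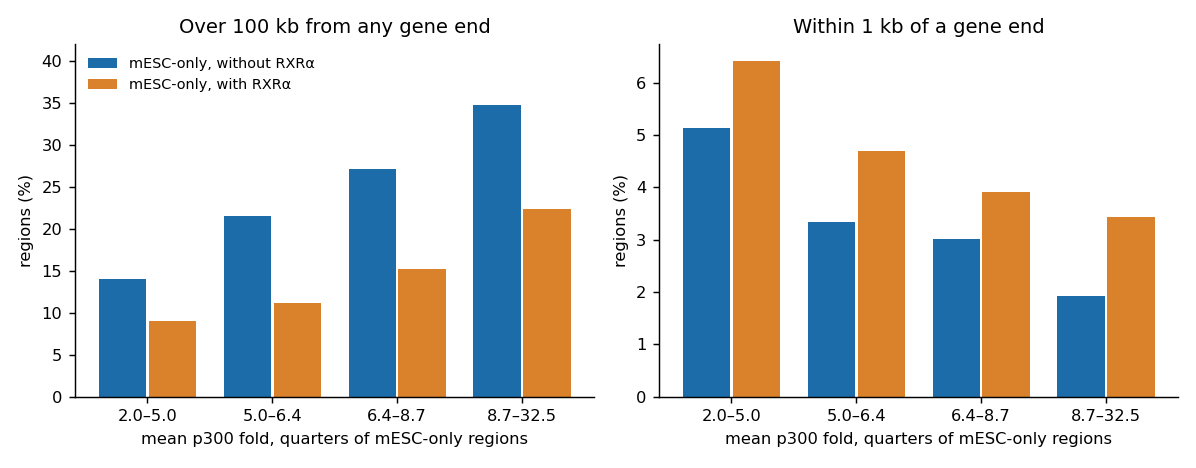
Percent of regions (y axes) over 100 kb from any gene end (left) and within 1 kb of one (right), in 4 equal bins of mean p300 fold (x axes), for mESC-only regions without RXRα (blue) and with RXRα (orange). The share over 100 kb from any gene end is 34.7% without RXRα and 22.4% with RXRα in the strongest bin. The blue bar is above the orange on the left and below it on the right in each bin.

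The share of mESC-only regions that lacked RXRα was higher on the X chromosome than on any autosome. Of 333 mESC-only regions on X, 247 were members (74.2%), against 57.1% of 13460 on the autosomes, where single chromosomes ran from 52.4% (chromosome 11) to 61.9% (chromosome 14). The same was found for p300 regions of both stages, of which 32.4% lacked RXRα on X, against 19.4% to 29.4% on autosomes. Members on X were also stronger, with median folds of 8.36 and 7.23, against autosomal medians of 5.60 to 6.77 in replicate 1 and 4.96 to 6.03 in replicate 2. RXRα mESC lists had 1.81% and 1.43% of their peaks on X, while p300 mESC lists had 2.42% and 2.57%. With each RXRα library taken alone, X stayed above the autosomes, with 74.5% of mESC-only regions lacking a peak of replicate 1, against 53.5% to 63.2%, and 91.3% lacking one of replicate 2, against 69.9% to 83.3%. No test was made on chromosomes.

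Libraries that the rule did not use also had few peaks at the members. RXRα of gastruloids was found at 85 members (1.07%, 95% Wilson interval 0.867 to 1.32) in replicate 1 and at 4 (0.0504%) in replicate 2, against 305 (5.21%, 4.67 to 5.81) and 25 (0.427%) of the mESC-only regions with RXRα in mESCs. The adjusted p was 2.95e-47 and 3.06e-06 (two-sided Fisher's exact test), and the background over all p300 mESC regions was 12.9% and 1.89%. Regions without RXRα in mESCs thus also had fewer RXRα peaks after differentiation than those with it. Both classes lie under the background, and both were chosen to lack p300 in gastruloids. The gastruloid libraries of RXRα, Sp5 and Zeb2 were made with HA antibody, as were the RXRα mESC libraries that the rule used. They are thus not fully independent of the rule. The regions with RXRα were also wider, with a median of 510 bp against 420 bp in members. Whether the shared tag and antibody or the width contributes to these differences was not tested. The RXRα gastruloid lists were very unequal, with 29867 and 3111 peaks.

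Sp5 and Zeb2, measured only in gastruloids, gave the same order. Zeb2, a repressor of epithelial genes, was at 176 members (2.22%) in replicate 1 and at 27 (0.340%) in replicate 2, against 287 (4.90%) and 50 (0.854%) with RXRα, with adjusted p of 3.41e-17 and 0.000152 (two-sided Fisher's exact test). The background was 17.1% and 6.11%. Sp5, a zinc-finger target of Wnt signalling, was at 43 members (0.542%) and 17 (0.214%), against 71 (1.21%) and 24 (0.410%), with adjusted p of 3.82e-05 and 0.0447 by the same test and a background of 8.41% and 6.08%. The Sp5 replicate 2 difference no longer passed when gene ends were left out (adjusted p 0.209, Fisher's exact test). In each of the 4 bins of p300 strength the members' shares for replicate 1 of RXRα, Zeb2 and Sp5 were below those of the regions with RXRα.

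**Figure D4:**
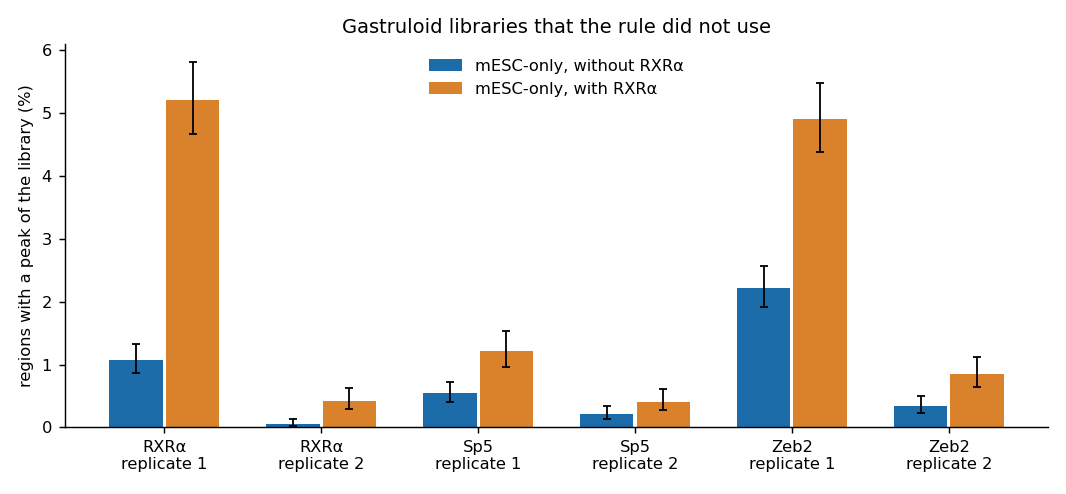
Percent of regions with a peak of each gastruloid library that the choice of regions did not use (y axis; libraries on the x axis), for mESC-only p300 regions without RXRα (blue, 7938) and with RXRα (orange, 5855), with 95% Wilson intervals that cover counting error only. The blue bar is below the orange in all 6 libraries, from 1.07% against 5.21% in RXRα replicate 1 to 0.214% against 0.410% in Sp5 replicate 2.

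In all, 295 members (3.72%) had a peak of any of these 6 libraries, and 35 of the 295 (11.9%) were at gene ends, against 3.49% of all members. Both Zeb2 libraries had a peak at 17 members, both Sp5 libraries at 11 and both RXRα gastruloid libraries at 2. The gene-end share of regions with such a peak in the other classes is not given. No shares with any or both libraries are given over all p300 mESC regions, so these counts are not read as traits of the members. The strongest with both Zeb2 libraries was near 3110040M04Rik (chr1:151177322-151177869, p300 folds of 8.51 and 6.58) and also had both Sp5 libraries. Others with Zeb2 were nearest to Cdh4, a cadherin gene (9.04 and 5.50), and Sox6, a transcription factor of cartilage and red cells (6.47 and 6.31). A member 449 bp from an end of Meis2, a homeobox gene and retinoic acid target, had both Sp5 libraries, with folds of 3.73 and 3.58. These members were named after their values were seen.

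Members were spread thinly over many genes. Each was assigned to the protein-coding gene with the nearest end within 100 kb, which does not show that it regulates that gene. At least 1 member was assigned to 4531 of 21887 genes, a background of 20.7%, and 3 or more to 308, or 1.41%. Of the genes with a member, 3416 had exactly 1. For mESC-only regions with RXRα, 3707 genes had at least 1, or 16.9%.

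Arid5b, which encodes a DNA-binding chromatin cofactor, had the most, with 10 members among 23 p300 regions, 9 of them inside the gene, and 3 mESC-only regions with RXRα. Their folds ran from 2.97 to 8.15 in replicate 1 and from 2.95 to 8.14 in replicate 2. Tns3, a tensin gene of focal adhesions, had 7 members and 2 mESC-only regions with RXRα, with the strongest 29531 bp from the gene (folds of 10.1 in both replicates). Shq1 had 6 members and none with RXRα, and Nudcd3 and Atrnl1 likewise had 6 and 0. Rbpms, an RNA-binding protein gene, had 6 and 2, and the strongest there had folds of 15.2 and 12.7. Gli2, a transcription factor of Hedgehog signalling, had 6 and 2, Zc3h12a, a nuclease that degrades cytokine transcripts, 6 and 3, and Tcerg1l and Fndc3b 6 and 1 each. At Nudcd3 and Fndc3b all 6 lay inside the gene.

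A higher share of pluripotency genes than of all genes had a member, while members were a smaller part of their mESC-only regions. In the naive list 10 of 18 genes (55.6%) had a member, and in the core list 8 of 16 (50%), against 20.7% of all genes. The naive list had 16 members beside 22 regions with RXRα, and the core list 16 beside 18, so that members made up 42.1% and 47.1% of their mESC-only regions, against 55.1% over all genes. These gene lists have many p300 regions of every class. In the naive list 17 of 18 genes had at least 1 p300 region, and in the core list 15 of 16. Among such genes 58.8% (naive) and 53.3% (core) had a member, against 41.96% of all genes with a p300 region. Of the p300 regions themselves, 15.7% (naive) and 17.4% (core) were members, against 24.2% over all genes. No test was made on lists.

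Among naive genes, Klf5, a Krüppel-like factor of self-renewal, had 3 members and no mESC-only region with RXRα, the strongest inside the gene with folds of 4.69 and 4.58. Tbx3, a T-box factor of the LIF response, had 3 members and 2 with RXRα, and its strongest lay 51954 bp away with folds of 7.18 and 6.38. Esrrb had 2 members, both inside the gene and weak, with 4.03 and 3.42 at the stronger, beside 6 regions with RXRα. Nanog and Klf4 had no member.

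Among core genes, Mycn, which encodes a Myc factor, had 4 members beside 4 regions with RXRα. Its strongest lay 45925 bp from the gene (chr12:12889969-12890422), with folds of 12.2 and 11.1. Sox2 had 3 members and 2 with RXRα, of which the strongest member lay 39294 bp away with 7.86 and 6.29. Jarid2, a cofactor of the Polycomb complex PRC2, had 3 and 2, all 3 members inside the gene, with 6.25 and 4.73 at the strongest. Pou5f1 had 1 member with 4.94 and 4.25. In the formative list 5 of 15 genes (33.3%) had a member, against 20.7% of all genes. The number was 9 without p300 mESC replicate 2, and 3 within 20 kb. Of genes with a p300 region, 38.5% in this list had a member, against 41.96% over all genes. Foxp1, a forkhead factor, had 3 beside 1 with RXRα, with 10.5 and 5.28 at the strongest, a wide spread between replicates.

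Signalling lists varied. In the FGF and ERK feedback list 9 of 14 genes (64.3%) had a member, while 4 of 14 (28.6%) had an mESC-only region with RXRα, and 13 members stood beside 9 such regions. With assignment within 20 kb, only 4 of the 14 had a member, so the count rests largely on regions farther from the genes. Over all genes, 20.7% had a member and 16.9% an mESC-only region with RXRα. Of genes with a p300 region, 75% in this list had a member, against 41.96% over all genes. Members were 59.1% of the mESC-only regions of the list, near the 55.1% over all genes. Spred1, an inhibitor of Ras signalling, had 2 members and none with RXRα, with 8.84 and 5.81 at the stronger. Fgfr2, an FGF receptor, had 2 and 0, with 6.50 and 6.24. Spred2, a relative of Spred1, had 2 beside 4. Members here were moderate in strength and spread over the inhibitors and receptors of the pathway.

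In the LIF and STAT3 list 6 of 13 genes (46.2%) had a member, against 20.7% of all genes. All 13 had a p300 region, and among all genes with a p300 region 41.96% had a member. There were 13 members beside 12 regions with RXRα. Lifr, the receptor of the LIF supplied to the mESCs, had the most of any listed gene, 5 members beside 2, with 3 of the 5 inside the gene. The strongest at Lifr (chr15:7137336-7138039) had 12.3 and 7.93. Socs3, a feedback inhibitor of STAT3, had 3 beside 3, the strongest 18896 bp away with 7.11 and 7.92. The LIF pathway genes thus had members and regions with RXRα in about equal number.

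The retinoic acid and lipid lists hold genes of the pathways in which RXRα is known to act. In the retinoic acid list 6 of 19 genes (31.6%) had a member and 9 of 19 an mESC-only region with RXRα, with 11 members beside 10. Aldh1a3, an enzyme that makes retinoic acid, had 3 members beside 1, with 9.18 and 7.23 at the strongest, and Meis2 had 3 beside 1, with 6.45 and 5.03. Rxra itself had no member. In the lipid list 6 of 18 genes had a member (33.3%; 12 without p300 mESC replicate 2), with 11 members beside 6 regions with RXRα. Abca1, a cholesterol exporter and textbook target of liver X receptors, had 3 beside 2, with 6.59 and 6.36 at the strongest. Its relative Abcg1 had 2 beside 0, with 7.38 and 5.91, and Nr1h2, a liver X receptor gene, 2 beside 0, with 8.55 and 8.997. Regions without RXRα thus occurred at genes of RXRα pathways too. Members made up 52.4% of the mESC-only regions of the retinoic acid list and 64.7% in the lipid list, against 55.1% over all genes. The share of all genes with a member was 20.7%. Of genes with a p300 region, 40% (retinoic acid) and 37.5% (lipid) had a member, against 41.96% over all genes.

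In the trophoblast list 9 of 17 genes (52.9%) had a member, and 5 within 20 kb, with 13 members beside 26 regions with RXRα, so that members were 33.3% of its mESC-only regions. Bmp4, a growth factor, had 3 beside 5, with 5.10 and 5.46 at the strongest. Tead4, a factor of the trophectoderm, had 2 beside 2, with 11.1 and 10.1, and Tfap2c 2 beside 7, with 10.5 and 7.55. In the germ line list 4 of 14 genes had a member, and Prdm1, a repressor needed for germ cells, had 4 beside 4, with 8.42 and 8.87. In the list of DNA methylation and chromatin genes 5 of 16 had a member. The number was 8 without p300 mESC replicate 2, and likewise 8 without RXRα mESC replicate 1. Tet2, an enzyme that oxidises methylated cytosine, had 3 beside 2, with 7.80 and 8.19. The share of all genes with a member was 20.7%. Of genes with a p300 region, 56.25% (trophoblast), 66.7% (germ line, 6 such genes) and 38.5% (chromatin) had a member, against 41.96% over all genes. Of the p300 regions of these lists, 18.8%, 16.7% and 14% were members, in the same order, against 24.2% over all genes.

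In the Wnt list 6 of 16 genes had a member, among them Znrf3, which removes Wnt receptors from the membrane, with 3 beside 2 and folds of 10.015 and 9.74 at the strongest. Tcf7l1, a repressor of Wnt targets in mESCs, had 3 beside 3, with 6.83 and 5.23. In the BMP and Nodal list 5 of 16 had a member, but only 6 members stood beside 18 regions with RXRα, so that members were 25.0% of its mESC-only regions. Of genes with a p300 region, 40% (Wnt) and 35.7% (BMP and Nodal) had a member, against 41.96% over all genes. Within 20 kb, 3 genes of each list had a member. Without p300 mESC replicate 2, 11 BMP and Nodal genes had one. In the neural tube list all 16 genes had a p300 region and 7 (43.75%) had a member, with 8 beside 13. None of the 16 had one within 20 kb, and 12 did without RXRα mESC replicate 1. Dbx1, a homeobox gene of spinal cord progenitors, had 1 with folds of 15.7 and 14. Members were few at Hox genes (1 of 39 genes), presomitic mesoderm genes (1 of 19) and the adult tissue control (1 of 18), beside 20.7% of all genes. These lists also had few p300 regions: 6 Hox, 11 presomitic mesoderm and 4 adult genes had any, and 2 of the 5 p300 regions of the adult list (40%) were members. Without p300 mESC replicate 2, 5 Hox and 5 presomitic mesoderm genes had a member, and 3 adult genes did without p300 mESC replicate 1. The adult gene with members was Prl, which encodes prolactin, with 2, and its stronger had folds of 16.9 and 10.3.

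**Figure D5:**
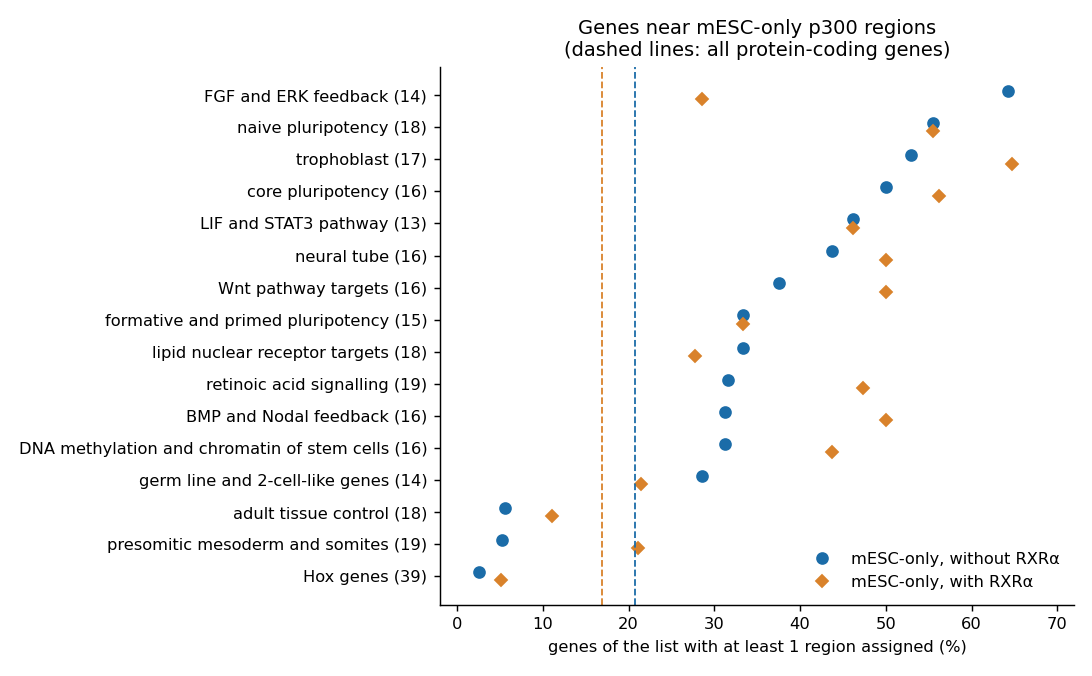
Percent of the genes of each list (x axis; list and its number of genes on the y axis) with at least 1 assigned mESC-only p300 region without RXRα (blue) or with RXRα (orange), with dashed lines at 20.7% and 16.9% for all protein-coding genes. FGF and ERK feedback genes are highest for regions without RXRα, at 64.3% against 28.6% with RXRα, at this assignment within 100 kb only (4 of 14 within 20 kb), and Hox, presomitic mesoderm and adult genes lie left of the dashed blue line.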

How the data were processed

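ChIP-seq peak lists of 14 libraries (12 immunoprecipitations, 2 inputs) were used, 1 list per library, not pooled. The submitters' processing notes name fastp 0.20.1, BWA 2.2.1, MACS2 2.2.7 and the build GRCm38.p6 (mm10); which input served as control is not given in the sources used here. The deposited score is 10 times −log10 q, rounded down. The authors' fold is the ratio of the summit to the local background, and the −log10 p and −log10 q are the authors' own, with q up to 0.05 listed. These values were compared only within a list. Depth is unknown; fragment numbers at summits were solved for from each deposited −log10 p and fold, and were whole within 0.01 for 100% of peaks.

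Peaks on 21 chromosomes that overlapped no input peak by 1 bp or more were kept, and overlapping peaks of the p300 mESC libraries were merged. Genes and promoter windows were those of RefSeq tables of GRCm38.p6 (21887 protein-coding genes, neither strand nor exons). Shares were compared by Fisher's exact test, two-sided, adjusted by Benjamini and Hochberg over 10 tests with a threshold of 0.05; 95% Wilson intervals cover counting error only. The test on motifs planned at each summit needs a genome, which was not used here, so 22 motifs were described in promoter windows instead. The share over 100 kb from any gene end and the 4 bins of p300 strength were chosen after seeing the data.

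Regions named are the 12 members with the highest mean fold, and genes named are the 10 with the most members, listed genes with 3 or more, and up to 3 more per list; others are said to be chosen after their values were seen. Sequences shown were chosen by strength and motif among the promoter windows after the data were seen. Of 285 listed genes in 16 lists, 284 matched the table. Members and lists were chosen with earlier results of these data known. Scripts were tested on simulated data and used Python 3.11.15, numpy 2.4.6, pandas 2.3.3 and scipy 1.17.1. Alternatives left out each of the 6 libraries that the rule used, tightened the q threshold, widened or narrowed the overlap, kept input peaks, equalised list lengths and changed gene distances.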

Additional observations from a re-analysis of the deposited data

How the results depend on the processing

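The number of members ran from 6787 to 14549 over 12 ways of using the lists, and from 8083 to 14549 with 1 library left out, the highest without replicate 2 of p300 in mESCs; 4865 members (61.3%) were kept in all 12. Listed genes with a member numbered 89, 57 with assignment within 20 kb and 94 to 134 with 1 library left out, the highest again without that replicate. The Sp5 replicate 2 difference (−0.196 percentage points, members minus regions with RXRα) was −0.116 without gene ends (adjusted p 0.209) and −0.136 with p300 mESC lists at −log10 q of at least 5 (adjusted p 0.123, both Fisher's exact test), and ran from −1.25 to −0.116 over 13 alternatives. The share over 100 kb from any gene end, members minus regions of both stages without RXRα, was 0.0565. This difference changed sign, to −0.633 with summits within 250 bp (adjusted p 0.455, Fisher's exact test) and −0.0648 with lists of equal length (0.952, same test). The causes were not tested. Members per named gene moved with the gene distance and the lists, from 5 to 11 at Arid5b, 1 to 10 at Tns3, 2 to 6 at Lifr and 1 to 7 at Mycn over 14 alternatives. The other tests kept their direction and side of the threshold under every alternative run. The gene-end difference from regions with RXRα ran from −2.19 to −0.749 over 14, and that over 100 kb from 6.87 to 11.001 over 12. The gene-end difference from regions of both stages without RXRα varied in size over 14. It was −8.91 without p300 mESC replicate 2 and −2.20 with p300 mESC lists at −log10 q of at least 5.

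No paired analysis was possible because the peak lists give presence per library, no test compares libraries, and the labels do not tie equal replicate numbers of different groups to a shared culture. The planned motif alternatives were not run, since they need the genome. An absent peak in lists of unequal length can be a missed one.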

Other observations

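Of all 7938 members, 13 had a summit within 1 kb of a RefSeq microRNA gene, outside the comparisons above. No such count is given for the other classes or for all p300 mESC regions, so it is not read as a trait of the members. The microRNA genes are listed as a description. The 13 members included a summit 472 bp from Mir130a (p300 folds of 6.63 and 5.95) and 710 bp from Mirlet7g (4.51 and 5.64). Another lay 218 bp from Mir23b (3.96 and 3.77). These 3 microRNAs are found in many tissues. A summit 963 bp from Mir205, a microRNA of epithelia, had 3.29 and 3.58. No microRNA of the mESC-enriched Mir290 cluster was among the 13. These microRNA genes were chosen after their values were seen.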
